A study of Mus musculus with 24 samples.

Results

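Potassium channels let potassium ions leave or enter cells down their electrochemical gradient, and so set membrane voltage. The genes described here are the protein-coding genes of the deposited table whose name consists of Kcn, further letters and a final number, which took in pore-forming subunits and the auxiliary subunits that travel with them. They were 64 of the 19399 genes in the table. By name prefix, 27 were voltage-gated pore subunits, 8 were calcium- or sodium-activated pore subunits, 11 were inward rectifiers, 8 were two-pore-domain channels and 10 were auxiliary subunits and interacting proteins. The annotation of the mouse genome used for coordinates (GENCODE M21, GRCm38) held 92 such genes, and the other 28 were not among the matching genes of the deposited table.

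RNA came from kidneys of 24 C57BL/6J mice, an inbred laboratory strain, aged 10 weeks, and polyadenylated RNA was sequenced, 1 library per mouse. The groups were 6 watered females, 5 deprived females, 6 watered males and 7 deprived males. Watered mice had food and water at all times, and for deprived mice the water was taken away 9 to 11 h before the kidney was collected. The clock times in the labels give a slightly different interval. All kidneys were taken around midnight, in the active period, so the comparison asks what a short, mild water loss does to the kidney in each sex.

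In kidney tubules, potassium channels in the membrane facing the blood recycle potassium for the sodium pump, and channels in the membrane facing the urine secrete it. The inward rectifier encoded by Kcnj1, also called ROMK, secretes potassium in the thick ascending limb and the collecting duct. Kcnj10 and Kcnj16 together form the main channel on the blood side of the distal convoluted tubule. Calcium- and sodium-activated channels open when those ions rise inside the cell, and voltage-gated channels open when the membrane depolarises.

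The libraries held 14411843 to 29398960 reads assigned to genes, and values are the authors' normalized counts. In 4 libraries an unnamed gene, ENSMUSG00000119584, took over 1% of reads, against 0.268% to 0.85% elsewhere: watered female 6 (1.90%), deprived female 1 (1.07%), deprived male 6 (1.29%) and deprived male 7 (2.86%). Deprived female 1 was the lowest of its group for 26 of 56 tested potassium channel genes, deprived male 7 for 19 and watered female 6 for 16. Deprived male 6 was the lowest for 8, as was deprived male 5. The treatment label of deprived female 5 described free access to water, against its title. It was kept with the deprived females. Markers of proximal tubule summed to at least 162328 per library. Skeletal muscle, nerve and adrenal cortex markers summed to at most 20.9, 26.9 and 191 per library. Brown fat markers ranged from 2.23 to 482. In bulk tissue, fewer cells of a type and less RNA per cell cannot be told apart.

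Promoter windows from RefSeq (GRCm38.p6), 250 bases before to 50 bases after the transcription start, were found for 45 of the 64 genes. The 5 windows shown belong to Kcnip2, Kcnk1 and Kcnk5, which differed between the sexes in watered mice with the smallest p among genes that have a window, and to Kcnj1 and Kcnj10, the secretory and distal channels described in each comparison. Each is written 5′ to 3′ on the strand of the gene. Capitals mark exact matches to any of 3 motifs searched on both strands: the E-box CACGTG, bound by clock transcription factors, the steroid receptor half-site AGAACA, and the STAT motif TTCNNNGAA. The windows lie at chr19:45816014-45816313 on the minus strand, chr8:125994852-125995151 on the plus strand, chr14:20181733-20182032 on the minus strand, chr9:32393735-32394034 on the plus strand and chr1:172340960-172341259 on the plus strand. The transcription start used for the window of Kcnj1 lies 21492 bases from the first start in the GENCODE gene.
Kcnip2: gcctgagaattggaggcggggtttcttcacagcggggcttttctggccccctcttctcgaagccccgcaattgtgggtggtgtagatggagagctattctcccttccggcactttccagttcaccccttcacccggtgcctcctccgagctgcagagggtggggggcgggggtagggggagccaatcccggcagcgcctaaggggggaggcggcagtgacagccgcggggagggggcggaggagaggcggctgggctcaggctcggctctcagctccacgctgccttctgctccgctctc
Kcnk1: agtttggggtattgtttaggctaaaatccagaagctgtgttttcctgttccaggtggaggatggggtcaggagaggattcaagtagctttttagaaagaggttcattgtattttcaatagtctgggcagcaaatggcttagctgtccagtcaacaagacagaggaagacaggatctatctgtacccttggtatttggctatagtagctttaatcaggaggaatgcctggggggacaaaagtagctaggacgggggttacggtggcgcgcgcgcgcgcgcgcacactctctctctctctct
Kcnk5: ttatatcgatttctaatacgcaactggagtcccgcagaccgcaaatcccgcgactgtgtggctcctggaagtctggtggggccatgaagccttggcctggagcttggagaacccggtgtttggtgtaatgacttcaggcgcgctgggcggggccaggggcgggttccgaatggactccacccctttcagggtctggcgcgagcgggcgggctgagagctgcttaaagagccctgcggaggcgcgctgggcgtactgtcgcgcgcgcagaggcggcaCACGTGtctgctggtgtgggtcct
Kcnj1: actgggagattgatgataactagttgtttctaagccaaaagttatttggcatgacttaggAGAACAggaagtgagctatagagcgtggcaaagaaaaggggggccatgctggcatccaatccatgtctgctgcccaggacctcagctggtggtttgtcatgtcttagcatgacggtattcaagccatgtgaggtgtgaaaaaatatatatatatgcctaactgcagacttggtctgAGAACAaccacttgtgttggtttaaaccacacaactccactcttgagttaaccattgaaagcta
Kcnj10: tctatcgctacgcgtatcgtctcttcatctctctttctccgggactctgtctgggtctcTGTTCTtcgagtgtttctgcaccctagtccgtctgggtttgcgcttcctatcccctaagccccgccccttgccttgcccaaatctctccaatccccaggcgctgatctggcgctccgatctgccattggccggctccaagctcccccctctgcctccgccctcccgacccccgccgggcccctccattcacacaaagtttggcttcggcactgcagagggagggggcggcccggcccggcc

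Kcnj1 and Kcnj10 held the steroid receptor half-site, Kcnk5 held the E-box, and no match was found in the windows of Kcnip2 and Kcnk1. Among the windows of potassium channel genes, 6 of 45 (13.3%) held the half-site, against 19.0% of all 32851 windows of this length. The 32851 were not limited to 1 window per gene and were not filtered by chromosome. The E-box was in 6 of 45 (13.3%), against 7.15% of all windows. The STAT motif was in 4 of 45 (8.89%), against 8.30% of all windows. A match describes letters in the window and is not a binding site.

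A handful of genes carried most of the potassium channel RNA of the watered kidney. Levels between genes are compared as the mean normalized count of the 12 watered mice per kb of merged exon. Per kb, the 6 highest genes held 89.7% of the summed level of all 64. Inward rectifiers held 72.9% of it and two-pore-domain channels 18.5%. Voltage-gated subunits, the class with most genes, held 5.09%, auxiliary subunits 2.45% and calcium- and sodium-activated subunits 1.09%. Only 9 genes were above 100 per kb, and 47 were below 20 per kb.

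Among inward rectifiers, Kcnj16, the partner subunit of Kcnj10, was the highest at 3065 per kb, rank 270 of the 17534 tested genes with a known exon length. Kcnj15, an inward rectifier of the proximal tubule, followed at 2637 per kb. Kcnj1 stood at 1783 per kb, rank 521, and Kcnj10 at 329.7 per kb, rank 3013. The order of Kcnj16 and Kcnj15 was not the same in the sexes. Per kb, Kcnj16 was 3012 ± 34.4 (SD, n = 6) in watered females and 3117 ± 151 (SD, n = 6) in watered males, whereas Kcnj15 was 1879 ± 85.4 and 3394 ± 233. Below these, Kcnj8, the pore of the vascular ATP-sensitive channel, stood at 77.9 per kb. The remaining 6 ranged from 1.04 (Kcnj9) to 16.9 per kb (Kcnj12).

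The two-pore-domain channels, which carry background potassium current, had a pair of high members. Kcnk5, a channel of the proximal tubule that responds to alkaline pH, averaged 1026 per kb, and Kcnk1 averaged 936 per kb. These averages hid opposite sexes. Kcnk5 was 494 ± 76.1 per kb in watered females and 1558 ± 217 in watered males (SD, n = 6 each), while Kcnk1 was 1384 ± 236 and 488 ± 62.8. The other 6 lay between 0.367 (Kcnk9) and 18.3 per kb (Kcnk4).

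Kcnq1, the voltage-gated pore that in the heart carries a slow repolarising current, led its class at 199 per kb. The lowest of the class was Kcnq5, at 0.676 per kb. By family, the highest member of Kcnd was Kcnd3 (13.6 per kb), of Kcna was Kcna5 (11.3 per kb) and of Kcnh was Kcnh4 (10.0 per kb).

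Of the calcium- and sodium-activated pores, Kcnt1, a sodium-activated channel best known from neurons, was the highest at 62.8 per kb, rank 9198. Kcnn1, a small-conductance calcium-activated channel, was at 27.0 per kb. Kcnma1, the pore of the large-conductance channel that secretes potassium at high urine flow, was at 3.17 per kb, and its smooth muscle partner Kcnmb1 at 7.06 per kb. Exons of Kcnma1 are long in this annotation (16976 bases), which lowers a value per kb. Among auxiliary subunits, Kcne1, the partner of Kcnq1, was at 104 per kb and Kcnip2, which binds the pores of the Kcnd family, at 49.0 per kb.

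**Figure D1:**
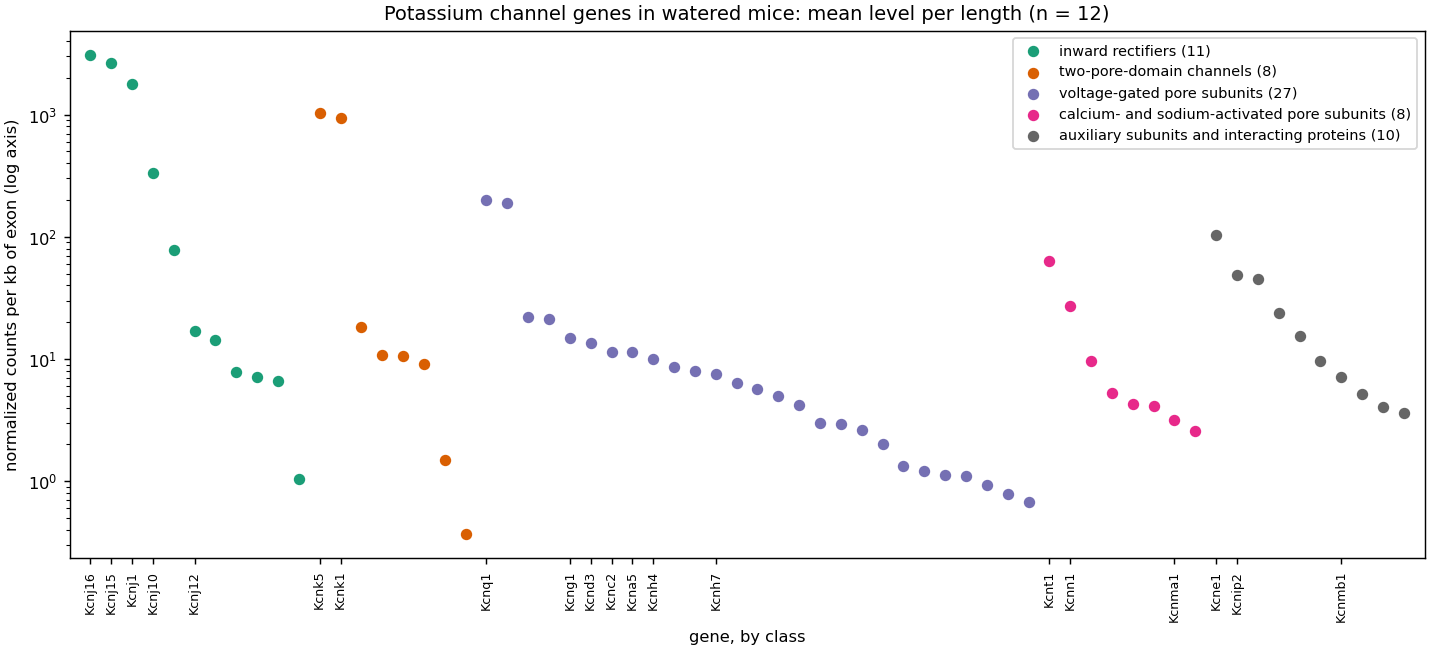
Mean level of each of the 64 potassium channel genes in the 12 watered mice, in normalized counts per kb of exon on a log axis, grouped and coloured by class, with 20 of them named on the axis. Kcnj16 is the highest (3065 per kb), and 47 genes lie below 20 per kb.

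The tests used the 56 genes that reached 10 normalized counts in 5 or more libraries. The other 8 (Kcna1, Kcnd2, Kcng4, Kcnh5, Kcnj9, Kcnk13, Kcnk9 and Kcnq5) had group means from 2.47 to 13.1 and were not tested at this depth. Differences are on the log2(value + 1) scale, on which changes of genes with few counts come out too small, with their SE, and a gene is called at a limma adjusted p below 0.05 over all genes tested.

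Water deprivation went with a lower level of Kcnt1 in both sexes, and of the 56 genes it alone passed the test for the mean of the sexes. Kcnt1 (ENSMUSG00000058740; chromosome 2, 25863734 to 25918273) encodes a large sodium-activated pore subunit. Its normalized counts were 717, 869.8, 691, 696, 854 and 594 in the 6 watered females and 379, 441, 552, 501 and 402 in the 5 deprived females. All deprived females lay below all watered females. In the 6 watered males they were 399.5, 473, 528, 455, 479.5 and 402, and in the 7 deprived males 339.8, 326, 294, 325, 373, 145 and 144. All deprived males lay below all watered males, and deprived males 6 and 7, which are among the 4 libraries that stood apart, were far below the other 5.

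The group means of Kcnt1 were 737 ± 106 (SD, n = 6) in watered and 455 ± 71.3 (SD, n = 5) in deprived females. They were 456 ± 49.1 (SD, n = 6) in watered and 278 ± 94.1 (SD, n = 7) in deprived males. Averaged over the sexes, the log2 change was -0.75 ± 0.14 (limma adjusted p = 0.0032). It was -0.70 ± 0.20 (limma adjusted p = 0.11) in females alone and -0.80 ± 0.18 (limma adjusted p = 0.072) in males alone, so neither sex passed the test by itself. The male minus female response was -0.10 ± 0.27 (limma adjusted p = 0.93). Over all 17592 tested genes, 3 (0.0171%) had deprived libraries below watered libraries with no overlap in both sexes: Kcnt1, Rhbg and Ovol1, named after their values were seen. Without the 4 libraries that stood apart, Kcnt1 was called in females at -0.69 (limma adjusted p = 8.6e-05), in males at -0.46 (0.0076) and in the mean at -0.57 (2.0e-06). That fit called more genes of all kinds: 741, 142 and 1230 of the 17592, against 139, 40 and 289 with all libraries.

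Deprived males enter the female test only through the estimate of the spread, which all groups share. Without deprived male 6 or deprived male 7 the female change of -0.70 had an SE of 0.17 and a limma adjusted p of 0.045 or 0.038, and leaving out deprived male 5 gave males a change of -0.88 (adjusted p = 0.040). The mean over the sexes was called in each of the 24 fits that left out 1 library, from -0.79 to -0.67, and with deprived female 5 counted as watered it was -0.66 (adjusted p = 0.041). The female change was called in 2 of those 24 fits (adjusted p up to 0.27) and in 6 of 12 other alternatives (up to 0.67, smallest change -0.53). The male change was called in 1 of the 24 (up to 0.15) and in 5 of the 12 (up to 0.30, smallest change -0.46). Counted as watered, deprived female 5, at 402, would lie below deprived females at 441, 501 and 552, so the female groups would overlap.

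**Figure D2:**
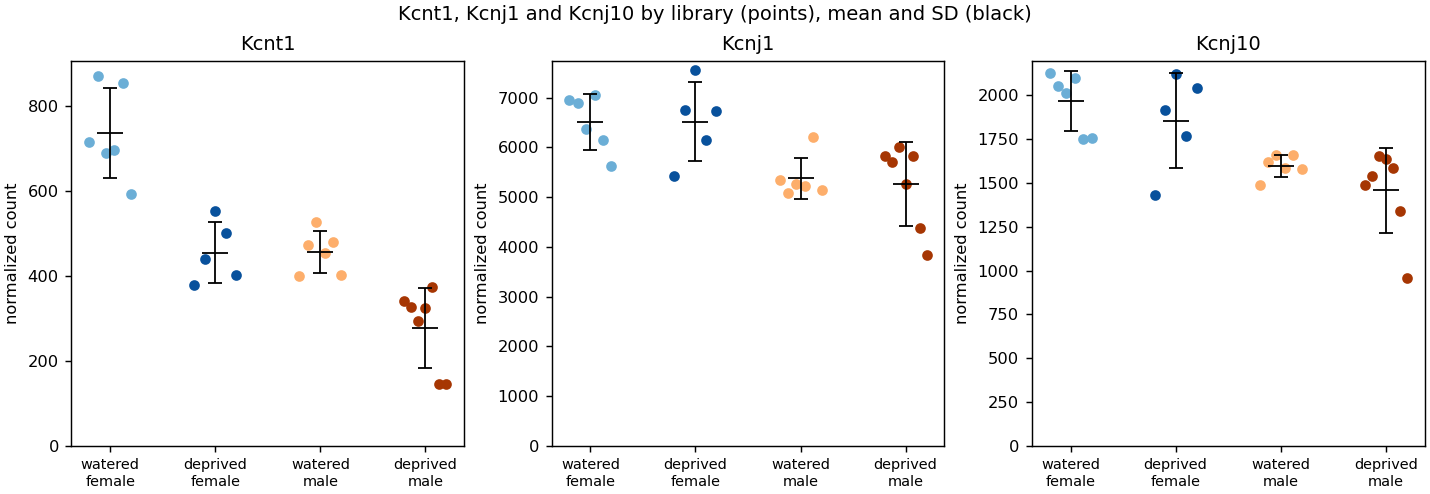
Normalized counts of Kcnt1, Kcnj1 and Kcnj10 in the 24 libraries (points) by group, with the mean and SD in black. Deprived libraries lie below watered ones for Kcnt1 in both sexes (means 737 to 455 in females and 456 to 278 in males), while the groups overlap within each sex for Kcnj1 and Kcnj10.

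The channels of potassium secretion and of the distal convoluted tubule did not pass the test. Kcnj1 (ENSMUSG00000041248; chromosome 9, 32372493 to 32399197) had a lowest, median and highest normalized count of 5627, 6629 and 7054 in watered females, and deprived females had 5426, 6742, 7547, 6153 and 6720.0. In males, the lowest, median and highest were 5076, 5248 and 6203 when watered and 3833, 5704 and 6005 when deprived. Watered and deprived groups overlapped in both sexes, and the lowest values of the deprived groups were those of deprived female 1 and deprived male 7. The log2 change of Kcnj1 was -0.0022 ± 0.10 (limma adjusted p = 0.998) in females and -0.05 ± 0.09 (limma adjusted p = 0.84) in males. The mean of both was -0.02 ± 0.07 (limma adjusted p = 0.92). Without the 4 libraries, the mean was 0.06 ± 0.04 (adjusted p = 0.42).

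Kcnj10 (ENSMUSG00000044708; chromosome 1, 172341210 to 172374085) had a lowest, median and highest normalized count of 1751, 2033 and 2129 in watered females, and deprived females had 1433, 1914, 2119.7, 1769 and 2041. In males, the lowest, median and highest were 1491, 1602 and 1658 when watered and 956, 1541 and 1655 when deprived. The groups overlapped again, with deprived female 1 and deprived male 7 lowest. The log2 change was -0.09 ± 0.11 (limma adjusted p = 0.91) in females, -0.15 ± 0.10 (limma adjusted p = 0.53) in males and -0.12 ± 0.07 (limma adjusted p = 0.51) in the mean. Without the 4 libraries it was -0.03 ± 0.06 (limma adjusted p = 0.80) in females, -0.02 ± 0.05 (adjusted p = 0.93) in males and -0.03 ± 0.04 (adjusted p = 0.75) in the mean. Its partner Kcnj16 had a mean change of -0.05 ± 0.05 (limma adjusted p = 0.73), and Kcnj15 one of -0.18 ± 0.07 (limma adjusted p = 0.23).

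Counted over the list, 0 of 56 genes were called in females with limma, against 0.79% of all tested genes, and 7 were at an unadjusted p below 0.05 (9.73% of all genes were). DESeq2 on the recovered reads called 1, Kcnt1 (364 of all 17592 genes), and edgeR called 0 (172 of all genes). In males, limma called 0 of 56, against 0.227% of all genes, with 6 at an unadjusted p below 0.05 (11.6% of all genes were). DESeq2 called 1, Kcnt1 (157 of all 17592 genes), and edgeR 0 (34 of all genes). In the mean of both sexes, 1 of 56 (1.79%) was called, against 1.64% of all genes, which is near the background, and 0.688% of all genes were called lower. Kcnt1 was that gene with limma, DESeq2 and edgeR alike. The median log2 change of the 56 was -0.10 in females, -0.04 in males and -0.06 in the mean, against -0.02, -0.0037 and -0.0068 over all tested genes.

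Over all genes, 13.4% had an unadjusted p below 0.05 in the mean of both sexes. By class, in that contrast, the 10 tested inward rectifiers had a median change of -0.04, with 0 called and 1 at an unadjusted p below 0.05 (Kcnj15). The 6 tested two-pore-domain channels had a median of -0.05, with 0 called and 2 at an unadjusted p below 0.05 (Kcnk5 and Kcnk4). In males, Kcnk5 had a lowest, median and highest normalized count of 4015, 5551 and 6023 when watered and 2707, 3606 and 5622 when deprived. Its change in males was -0.51 ± 0.15 (limma adjusted p = 0.19). The groups overlapped, and it did not pass. Kcnk1 in males was 0.26 ± 0.10 (limma adjusted p = 0.28), and in females -0.07 ± 0.10 (limma adjusted p = 0.94).

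The 22 tested voltage-gated subunits had a median mean change of -0.06, with 0 called and 4 at an unadjusted p below 0.05. Kcng1, a silent subunit that modifies other voltage-gated pores, was -0.50 ± 0.19 (limma adjusted p = 0.21) in the mean. Kcnq1 was -0.01 ± 0.05 (limma adjusted p = 0.94) in the mean. Kcnd3, Kcnc2, Kcna5, Kcnh4 and Kcnh7 lay between -0.09 and 0.10 in the mean, each with a limma adjusted p of at least 0.79.

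The 8 calcium- and sodium-activated subunits had a median of -0.08, with Kcnt1 called and Kcnn1 at -0.18 ± 0.09 (limma adjusted p = 0.37). Kcnma1 was -0.08 ± 0.11 (limma adjusted p = 0.83). The 10 auxiliary subunits had a median of -0.07 with 0 called. Kcnip2 was the other named gene whose female groups did not overlap. Its normalized counts in watered females had a lowest, median and highest of 280.1, 307 and 337, and the 5 deprived females had 245, 237, 204, 267 and 213. Every deprived female lay below every watered one, with a log2 change of -0.40 ± 0.22 (limma adjusted p = 0.61). With each sex fitted alone, the same change had an adjusted p of 0.029. In males, where Kcnip2 had group means of 33.0 ± 12.2 and 38.2 ± 14.5, the change was 0.19 ± 0.20 (limma adjusted p = 0.67). In females, groups without overlap were found for 3 of the 56, against 2.48% of all genes. Kcnt1 and Kcnip2 were lower in deprived females, and Kcnk6 was higher. For Kcnk6 the gap was narrow, from 46.2 in the highest watered female to 46.6 in the lowest deprived female. In males, groups without overlap were found for 1 (Kcnt1), against 0.529% of all genes. Kcne1 was -0.07 ± 0.06 (limma adjusted p = 0.67) and Kcnmb1 -0.04 ± 0.14 (limma adjusted p = 0.94) in the mean.

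The responses of the sexes were compared in the same fit. With limma, 0 of 56 genes differed in response between males and females, and 0.0% of all genes did. An unadjusted p below 0.05 was found for 4, among them Kcnk1, Kcnt2 and Kcnn3, against 7.09% of all genes. Neither edgeR nor DESeq2 called any of the 56, and over all 17592 genes they called 0 and 46.

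**Figure D3:**
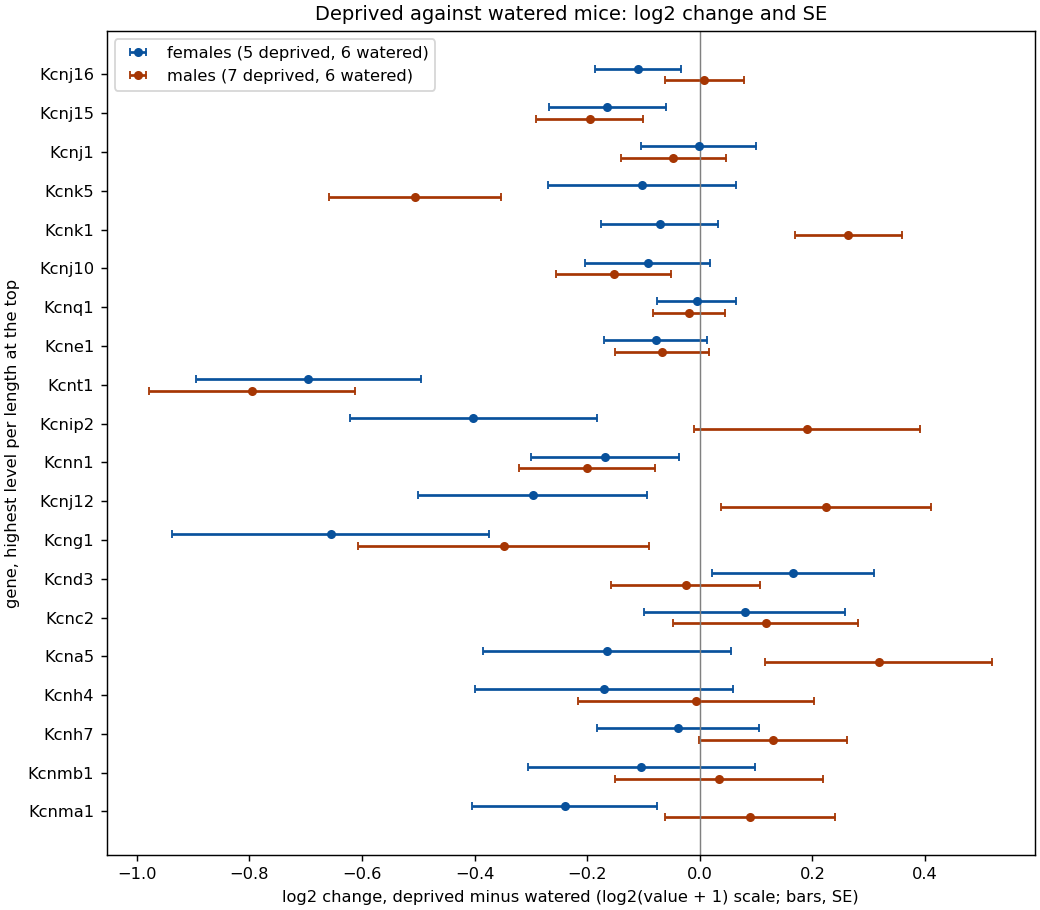
Log2 change, deprived minus watered, with SE, of 20 named potassium channel genes in females (blue) and males (red), with the highest level per length at the top. Kcnt1 is lower in both sexes (-0.70 and -0.80), and Kcnj1 lies at 0 within its SE.

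Other genes of renal potassium handling gave a comparison outside the channel family. Of 33 tested (transporters, the sodium channel subunits, the sodium pump and their regulators), 1 rose and 2 fell in the mean of both sexes, where 1.64% of all genes were called and 0.688% were called lower. Sgk1, a kinase induced by aldosterone and glucocorticoids, rose by 0.64 ± 0.13 (limma adjusted p = 0.013). Scnn1b, a subunit of the epithelial sodium channel, changed by -0.18 ± 0.04 (adjusted p = 0.017), and Hsd11b2, the enzyme that inactivates glucocorticoids in aldosterone target cells, by -0.18 ± 0.05 (adjusted p = 0.040). In females, Hsd11b2 was called alone, at -0.28 ± 0.07 (adjusted p = 0.044), and in males none of the 33 was, Sgk1 having 0.78 ± 0.18 (adjusted p = 0.075). Among cell type markers in the mean contrast, 1 of 4 for the thick ascending limb (Cldn16) and 3 of 6 for endothelium (Tie1, Plvap and Pecam1) rose. Of 8 proximal tubule markers, 1 (Slc22a6) fell. The other markers of these lists were not called. The 6 principal cell markers went both ways: the water channels Aqp2 and Aqp3 rose, and Scnn1b and Hsd11b2, which are also among the 33, fell. The summed level of the 4 thick ascending limb markers was 101622 to 127269 in watered and 108332 to 125824 in deprived females, and 94645 to 105422 and 79398 to 108731 in males. The part of these cell types in the level of Kcnt1 was not tested.

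Far more potassium channel genes differed between the sexes than between water states, as over all genes. In watered mice, 23 of 56 (41.1%) differed between males and females, against 30.5% of all genes. Of these, 4 were higher in males (15.9% of all genes were) and 19 lower (14.5% of all genes were). The call held for 16 of the 23 whichever library was left out. The median log2 difference, male minus female, was -0.32 over the 56 and -0.02 over all genes. Groups did not overlap for 15 of the 56, against 22.4% of all genes.

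Of the 10 inward rectifiers, 2 were higher in males and 4 lower. Kcnj15 (ENSMUSG00000062609; chromosome 16, 95257558 to 95300260) had a lowest, median and highest normalized count of 10952, 11932 and 12509 in watered females and 19240.5, 21846 and 23103 in watered males. All males lay above all females, with a log2 difference of 0.85 ± 0.10 (limma adjusted p = 1.4e-07). Exons of Kcnj15 share 5.27% of their length with the antisense gene Gm49643. Kcnj8 was higher in males by 0.39 ± 0.10 (limma adjusted p = 0.0031), with normalized count means of 172 ± 16.6 in females and 225 ± 14.2 in males (SD, n = 6 each). Kcnj12, a strong rectifier known from heart and muscle, was lower, at -1.03 ± 0.19 (limma adjusted p = 0.00015), and Kcnj11, the pore of the ATP-sensitive channel of beta cells, was at -0.50 ± 0.17 (limma adjusted p = 0.029). The call on Kcnj11 was lost without any of watered females 1, 2, 4 or 5 or watered males 4, 5 or 6, with adjusted p up to 0.069. Kcnj16 differed by 0.05 ± 0.07 (limma adjusted p = 0.67) and was not called.

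Kcnj1 was lower in watered males than in watered females, at -0.27 ± 0.10 (limma adjusted p = 0.033), with group means of 5379.5 ± 414 and 6509 ± 560.0 (SD, n = 6 each), and the groups overlapped. The call was lost when any of watered females 1, 2 or 4 or watered males 1, 2, 3, 4 or 6 was left out, with adjusted p up to 0.074 and differences of -0.32 to -0.25 over the 24 such fits. Kcnj10 was lower, at -0.30 ± 0.11 (limma adjusted p = 0.034), with means of 1598 ± 62.5 in males and 1967 ± 170.3 in females (SD, n = 6 each), and all males lay below all females. Its call was lost without watered females 1, 2, 3 or 4 or watered males 1, 4 or 6, with adjusted p up to 0.073 and differences of -0.33 to -0.27. Without the 4 libraries that stood apart, both were called, Kcnj1 at -0.31 (adjusted p = 1.0e-05) and Kcnj10 at -0.33 (adjusted p = 2.3e-06). That fit called 7395 of all 17592 genes between watered sexes, against 5361 with all libraries.

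Kcnk5 and Kcnk1 differed in opposite directions between the sexes. Kcnk5 (ENSMUSG00000023243; chromosome 14, 20140057 to 20181809) had a lowest, median and highest normalized count of 1339, 1653 and 1986 in watered females and 4015, 5551 and 6023 in watered males. The difference was 1.66 ± 0.16 (limma adjusted p = 5.9e-09). Kcnk1 (ENSMUSG00000033998; chromosome 8, 125995170 to 126030685) had 2524, 3020.5 and 4057 in watered females and 964, 1028 and 1307 in watered males. The difference was -1.50 ± 0.10 (limma adjusted p = 3e-12). The sexes did not overlap for either gene. Kcnk1 shares 8.01% of its exon length with an antisense gene, Gm45875. Of the 6 two-pore-domain channels, 1 was higher and 2 were lower in males, the third being Kcnk4 at -0.40 ± 0.14 (limma adjusted p = 0.026), which shares 13.1% of its exon length with Catsperz on the same strand. Without watered female 1 or 5 or watered male 3 or 4, Kcnk4 was not called, with adjusted p up to 0.066.

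Of the 22 voltage-gated subunits, 1 was higher in males and 7 were lower. Kcng1 (ENSMUSG00000074575; chromosome 2, 168260117 to 168281736), the higher one, had a lowest, median and highest normalized count of 11.3, 24.3 and 50.8 in watered females and 82.9, 108 and 125 in watered males, and the sexes did not overlap. Its difference was 2.07 ± 0.27 (limma adjusted p = 8.6e-07). Kcnc2, a fast voltage-gated subunit known from interneurons, had 87.5, 117 and 135 in females and 43.3, 50.7 and 55.1 in males. It was lower in every male than in every female, at -1.18 ± 0.17 (limma adjusted p = 4.5e-06). Kcnq1 had means of 929 ± 43.9 in females and 696 ± 57.4 in males (SD, n = 6 each), a difference of -0.42 ± 0.07 (limma adjusted p = 1.8e-05) without overlap. Its exons share 2.96% of their length with the antisense RNA Kcnq1ot1.

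Kcnh7, of the ether-a-go-go related family, was lower in watered males, at -0.73 ± 0.14 (limma adjusted p = 0.00015). Exons of Kcnh7 share 4.57% of their length with Gca on the opposite strand. Other voltage-gated calls were on Kcnf1 at -0.62 ± 0.19 (limma adjusted p = 0.012), Kcns1 at -0.83 ± 0.25 (limma adjusted p = 0.014) and Kcnh3 at -0.78 ± 0.29 (limma adjusted p = 0.041). Kcnf1 and Kcns1 encode silent subunits that need a partner pore. Kcnh3 had group means of 15.0 ± 4.42 and 8.35 ± 2.88, close to the filter on low values, and its call was lost without any of watered females 2, 4, 5 or 6 or watered males 1, 2, 3 or 4, with adjusted p up to 0.10.

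**Figure D4:**
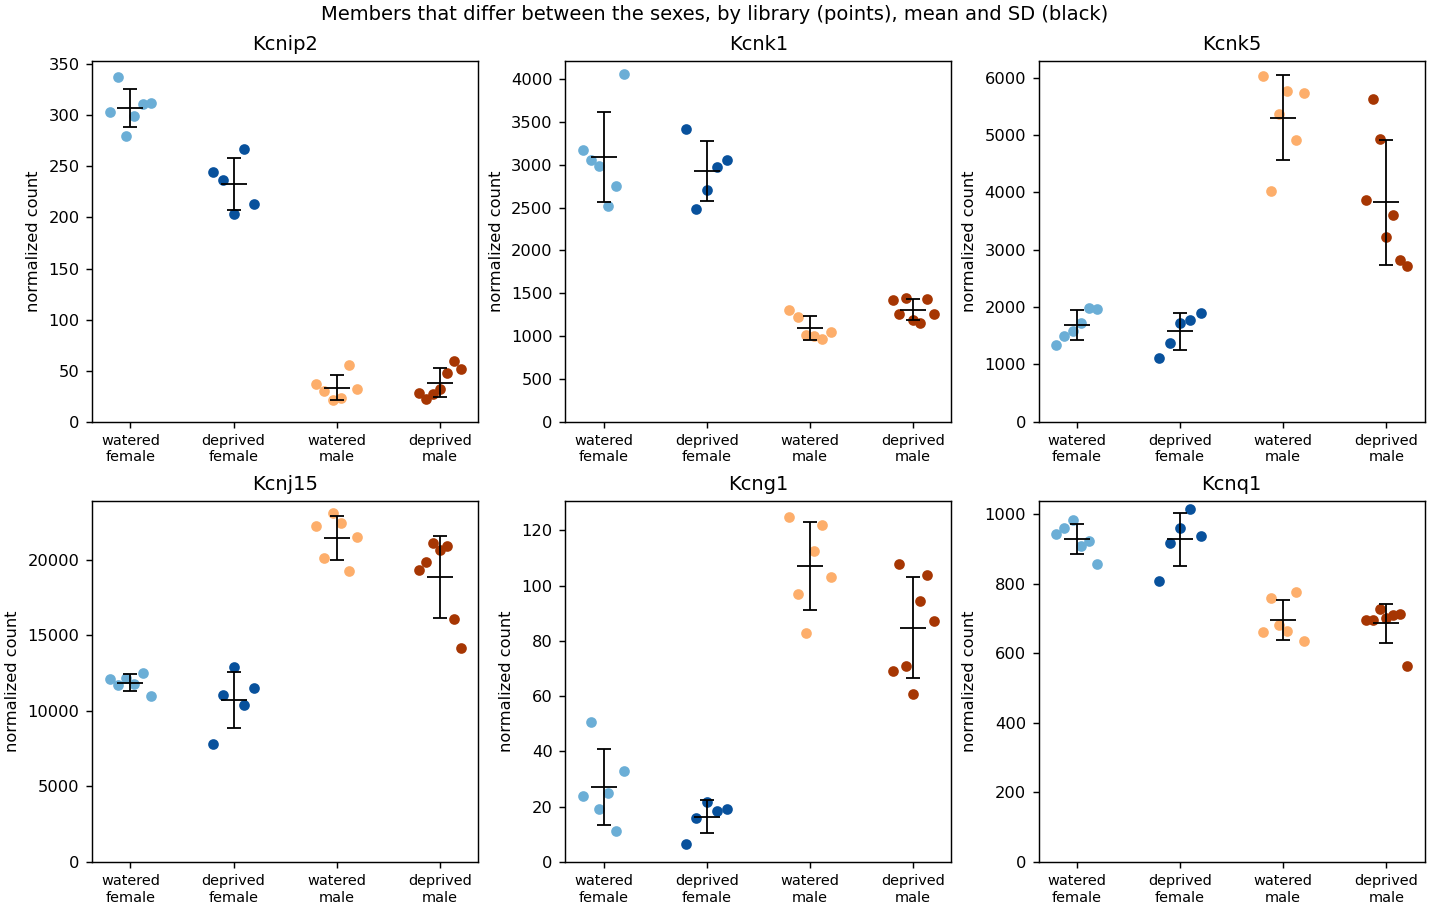
Normalized counts of 6 potassium channel genes in the 24 libraries (points) by group, with the mean and SD in black. Kcnip2 (means 307 in watered females and 33.0 in watered males), Kcnk1 and Kcnq1 are lower in males, and Kcnk5, Kcnj15 and Kcng1 are higher in males.

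The largest difference between the sexes among the 56 was that of an auxiliary gene. Kcnip2 (ENSMUSG00000025221; chromosome 19, 45791839 to 45816061), whose product binds and traffics pores of the Kcnd family in heart, had a lowest, median and highest normalized count of 280.1, 307 and 337 in watered females and 21.5, 31.0 and 55.1 in watered males. Every male was far below every female, with a log2 difference of -3.25 ± 0.21 (limma adjusted p = 1.7e-12). Of the pores of its binding partners, Kcnd3 differed by 0.08 ± 0.14 (limma adjusted p = 0.69) and Kcnd1 by -0.17 ± 0.35 (limma adjusted p = 0.77), and neither was called. Of 10 auxiliary genes, 4 were lower in males and none higher by the test. Besides Kcnip2 these were Kcnab3 at -0.86 ± 0.23 (limma adjusted p = 0.0048), Kcne1 at -0.24 ± 0.09 (limma adjusted p = 0.04) and Kcnmb1 at -0.52 ± 0.19 (limma adjusted p = 0.04). Those of Kcne1 and Kcnmb1 were lost in 9 of the 24 fits that left out 1 library each, with adjusted p up to 0.09 and 0.084. For Kcne1 these left out watered females 1, 2, 4 or 5 or watered males 1, 2, 3, 4 or 6, and for Kcnmb1 watered females 1, 3, 4, 5 or 6 or watered males 1, 3, 5 or 6.

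Of the 8 calcium- and sodium-activated subunits, 2 were lower in watered males. Kcnt1 was lower, at -0.69 ± 0.19 (limma adjusted p = 0.0071), every watered male lying below every watered female, and Kcnn2, a small-conductance calcium-activated channel, at -0.48 ± 0.12 (limma adjusted p = 0.0022). Kcnma1 differed by 0.39 ± 0.16 (limma adjusted p = 0.062). The mean of Kcnt1 in deprived females was 455 ± 71.3 (SD, n = 5) and that in watered males 456 ± 49.1 (SD, n = 6), and these groups were not tested against each other.

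Cell type markers differed between the sexes too, and their part in these differences was not tested. In watered mice, 4 of 8 proximal tubule markers were higher in males: Slc7a13 (log2 difference 8.07), Slc22a6 (1.24), Slc34a1 (0.57) and Aqp1 (0.17). The other 4 were not called: Lrp2 (-0.14), Cubn (-0.15), Slc5a12 (-0.28) and Slc5a2 (0.04). The 8 markers summed to 207454 to 233094 in females and 267678 to 315332 in males. The 4 thick ascending limb markers summed to 101622 to 127269 in females and 94645 to 105422 in males, with 1 called lower in males. Of the markers of the other segments that carry Kcnj1 or Kcnj10, 1 of 3 for the distal convoluted tubule (median log2 difference -0.36) and 3 of 6 for the principal cell of the collecting duct (median -0.29) were lower in males, and none was higher by the test. The distal convoluted tubule markers summed to 31455 to 48838 in females and 30604 to 43393 in males, and the principal cell markers to 16075 to 22011 and 14295 to 16361. All 4 podocyte markers were lower in males. Of the 33 tested potassium handling genes outside the family, 6 were higher and 14 lower in watered males, against 15.9% and 14.5% of all genes. Abcc9, the partner subunit of Kcnj8, was among the higher, at 0.91 ± 0.13 (limma adjusted p = 4.7e-06), named after its value was seen. In watered males, 3 of 6 endothelium markers and 1 of 8 smooth muscle, pericyte and stroma markers (Rgs5, at -0.44) were lower. No marker of either list was higher by the test.

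Without water, 22 of 56 genes (39.3%) differed between males and females, against 33.1% of all genes. Of these, 4 were higher in males (17.5% of all genes were) and 18 lower (15.6% of all genes were). This contrast was added after the data were examined. In watered and in deprived mice alike, 15 genes (26.8%) were called in the same direction, against 22.0% of all genes. Higher in males in both were Kcnj15, Kcnk5 and Kcng1. Genes lower in both included Kcnip2, Kcnk1, Kcnc2, Kcnq1, Kcnh7, Kcnj12, Kcnn2, Kcnt1, Kcnf1, Kcnj1 and Kcnj10. No library enters both contrasts, but a common estimate of the spread does.

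In deprived mice, the log2 differences were -2.65 ± 0.21 (limma adjusted p = 1.4e-10) for Kcnip2, -1.16 ± 0.10 (limma adjusted p = 6.6e-10) for Kcnk1 and 1.26 ± 0.16 (limma adjusted p = 9.1e-07) for Kcnk5. They were 2.38 ± 0.27 (limma adjusted p = 1.1e-07) for Kcng1 and 0.82 ± 0.10 (limma adjusted p = 3.5e-07) for Kcnj15. Kcnk5 counts in deprived females were 1116, 1375, 1723, 1780.0 and 1892, and the lowest, median and highest in deprived males were 2707, 3606 and 5622. The sexes still did not overlap for these 5 genes, nor for Kcnq1, Kcnt1 and Kcnc2, which makes 8 of 56 against 15.5% of all genes. Kcnj12 was called in deprived mice at -0.51 ± 0.20 (limma adjusted p = 0.048), but 15 of the 24 fits that left out 1 library lost the call, with adjusted p up to 0.13. These left out watered females 1, 2, 4, 5 or 6, deprived females 3, 4 or 5, watered males 2, 3 or 4, or deprived males 1, 2, 6 or 7. Kcnj1 was at -0.32 ± 0.10 (limma adjusted p = 0.014), and without deprived female 3 at -0.26 (adjusted p = 0.056). Kcnn2 was at -0.36 ± 0.12 (limma adjusted p = 0.021), and without deprived female 1 its adjusted p was 0.051. Kcnj10 was at -0.36 ± 0.11 (limma adjusted p = 0.011).

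Some genes were called in only 1 water state: Kcnab3, Kcne1, Kcnh3, Kcnj11, Kcnj8, Kcnk4, Kcnmb1 and Kcns1 in watered mice, and, among others, Kcnh1, Kcnh2, Kcnma1, Kcnn3, Kcns3 and Kcnt2 in deprived mice. This split depends on the threshold: Kcne1 in deprived mice had a limma adjusted p of 0.0504. With DESeq2, Kcne1 was also called in deprived mice (adjusted p = 0.035) and Kcnma1 in watered mice (DESeq2 adjusted p = 0.043). Kcnma1 had a lowest, median and highest normalized count of 57.3, 59.0 and 76.0 in deprived males, and deprived females had 34.6, 30.1, 57.4, 34.5 and 41.8. It was higher in males by 0.72 ± 0.16 (limma adjusted p = 0.0009), and the groups overlapped at 1 female. Calls on Kcnh1, Kcnh2 and Kcnt2 were each lost when some single libraries were left out: deprived females 3, 4 or 5 or deprived males 3 or 6 for Kcnh1 (adjusted p up to 0.09), deprived females 1 or 4 or deprived males 4 or 5 for Kcnh2 (up to 0.064), and deprived females 2 or 4 for Kcnt2 (up to 0.061). Whether the difference between the sexes depended on water was tested as the male minus female response, which called 0 of the 56 genes with limma, so none of these is shown to differ between water states.

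**Figure D5:**
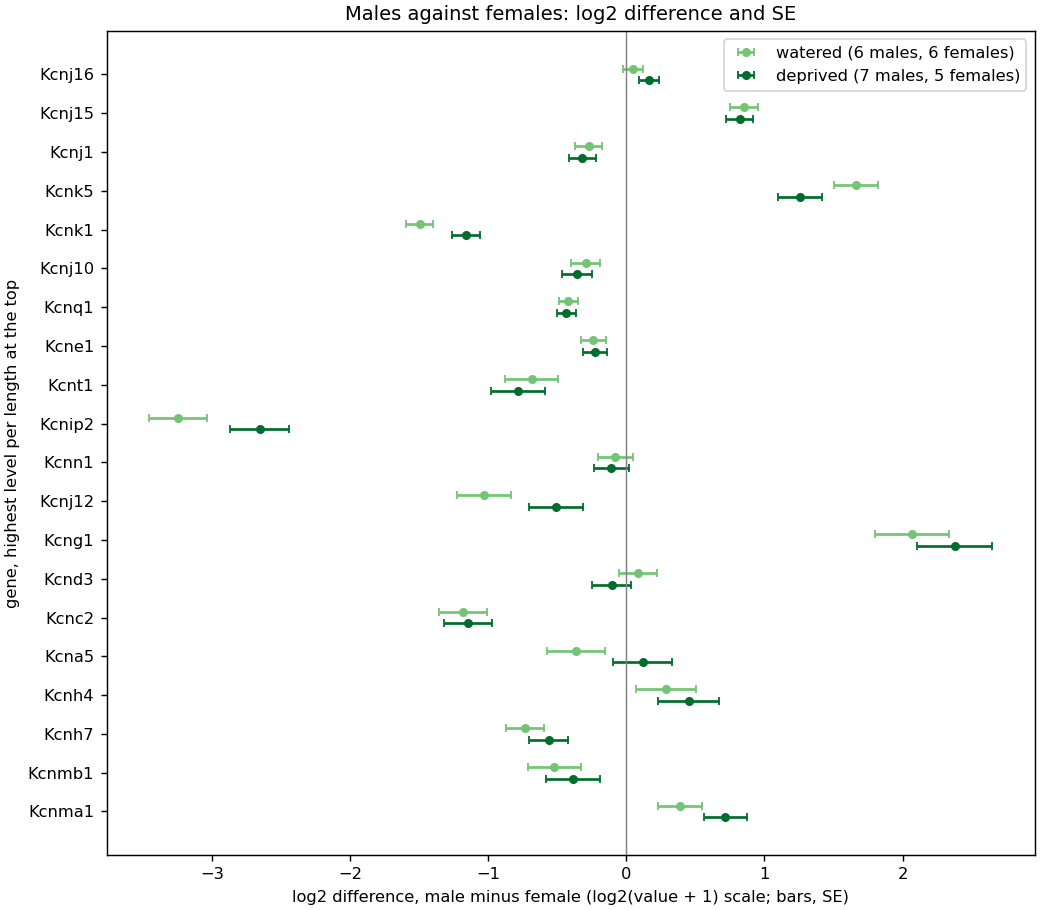
Log2 difference, male minus female, with SE, of 20 named potassium channel genes in watered (light green) and deprived (dark green) mice, with the highest level per length at the top. Kcnip2 lies furthest to the left (-3.25 and -2.65) and Kcng1 furthest to the right (2.07 and 2.38).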

How the data were processed

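Polyadenylated RNA from 24 mouse kidneys was sequenced, per the labels' protocols. The authors deposited normalized gene counts, a linear signal, for 19399 genes. In the submitters' processing notes Trim Galore, Subread's featureCounts, DESeq2 and mm10 appear, with no versions. For the aligner, the annotation release and strand use, the answer is not given in the sources used here. No gene of the deposited table had under 100 reads in total or reads in fewer than 12 libraries. Every deposited value (100%) was within 0.01 read of a whole multiple of its library's step, so reads could be recovered. They summed to 14411843 to 29398960 per library, and genes with few counts are the least precise.

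The main test was limma 3.58.1 (R 4.3.3) on log2(value + 1), with a trended and robust prior variance, a coefficient for each group and all 24 libraries in 1 fit. The filter on low values kept genes that reached 10 in 5 or more libraries (17592), and p-values were adjusted by Benjamini-Hochberg over all of them, with a threshold of 0.05. Deprived mice were compared with watered ones within females, within males and averaged over the sexes. The male minus female response, and males against females in watered and in deprived mice, came from the same fit. The contrast in deprived mice was added after the data were examined. Each replicate is a mouse, and whether mice shared a litter or cage is not given in the sources used here. The fit was tested on simulated data.

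Alternatives were pseudocounts of 0.5 and 5, no filter, DESeq2 1.42.0 and edgeR 4.0.16 on recovered reads, TMM scaling, library weights, each sex alone, deprived female 5 left out or moved to the watered females, the 4 libraries that stood apart left out, replicate blocks, and each library left out in turn. Coordinates are 1-based from GENCODE M21 (GRCm38, also called mm10). It matched 19298 gene identifiers of the table, with 101 unmatched, and all 64 potassium channel genes matched. Levels per kb divide by merged exon length.

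The genes and lists were chosen with earlier results of these data known. The rule for named genes took potassium channel genes called for deprivation or for a difference in response, the 10 with the smallest p among those called between watered sexes, the 8 highest per length, the highest of each main family, the 3 with the smallest p in the mean over the sexes, and a fixed set of 10 (Kcnj1, Kcnj10, Kcnj15, Kcnj16, Kcnk1, Kcnk5, Kcnma1, Kcnq1, Kcne1 and Kcnt1). This gave 22 genes, of which 2 are not reported here. Genes outside the family were named when called for deprivation. Any other gene given with values was chosen after its values were seen.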

Additional observations from a re-analysis of the deposited data

Results flagged for a closer look

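A library far from the others of its group was looked for among the 22 named potassium channel genes in the 4 groups, 88 groups in all, by setting the gap of the highest or lowest value to its neighbour against the whole range of the group. Chance flags about 1 in 20 groups, and 3 stood out. Kcnj1, the secretory inward rectifier, was 6200 normalized counts in watered male 5, against 5076 to 5351 in the other 5 watered males. Kcnq1, the voltage-gated pore, was 562 in deprived male 7, against 694.6 to 727.4 in the other 6 deprived males. Deprived male 7 is the library with the largest share of reads on the unnamed gene ENSMUSG00000119584, 2.86%. Kcnc2, a fast voltage-gated subunit, was 146 in deprived female 4, against 107.9 to 117.8 in the other 4 deprived females. None of the 22 named genes had every deprived male on one side of the watered mean and every deprived female on the other.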

How the results depend on the processing

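Counts of called potassium channel genes kept to within 1.5 times the reported count in every contrast and alternative run, except for deprivation in each sex alone, where the reported count was 0. In females it was 1 with DESeq2, 1 without the 4 libraries that stood apart, 2 with library weights (Kcnt1 and Kcnip3) and 2 with each sex fitted alone (Kcnt1 and Kcnip2). Over all 17592 tested genes, these fits called 364, 741, 1003 and 173 in females. In males it was 1, Kcnt1, with DESeq2, with library weights and without the 4 libraries, where 157, 133 and 142 of all 17592 genes were called. Leaving out 1 library at a time gave 0 to 1 in females and in males, 1 to 1 in the mean and 0 to 0 for the male minus female response. It gave 17 to 24 between watered sexes and 19 to 26 between deprived sexes. Over all 17592 tested genes, these fits called 66 to 215 in females, 22 to 65 in males and 169 to 330 in the mean. They called 0 to 3 for the male minus female response, 4717 to 6006 between watered sexes and 4923 to 6138 between deprived sexes. Deprived female 5 left out for its conflicting label is one of these fits. Fits of each sex alone are not possible for contrasts across the sexes.

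Deviations from the group means were compared between watered and deprived mice of the same sex that share a replicate number. Their correlation was -0.08 to 0.16 for the numbers in the titles and -0.12 to 0.14 for those in the library codes. Mice with unlike numbers were not set beside them, so this cannot tell whether the numbers mark a litter, cage or batch. With either number as a replicate block, 1 gene, Kcnt1, was called in females and 1 in males. Over all 17592 tested genes, the title numbers as a block gave 203 calls in females and 64 in males. The library code numbers gave 222 and 59, and the fit without a block 139 and 40.

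Small deprivation changes that were not called turned sign by more than 1 SE for 10 values. With library weights, Kcnj16 in the mean over the sexes went to 0.0090, Kcnj1 in males to 0.086, Kcnj1 in the mean to 0.057 and Kcnd3 in males to 0.12. Without the 4 libraries, Kcnj16 in the mean went to 0.027, Kcnj1 in males to 0.091, Kcnj1 in the mean to 0.056, Kcnip2 in males to -0.053, and the male minus female response of Kcnt1 to 0.24 and of Kcng1 to -0.13. The cause was not tested. Over all 22 named genes, contrasts and alternatives, 40 values gained a call and 54 lost one. Another 141 values near 0, none of them called, turned sign by less than 1 SE. The settings for the contrast in deprived mice were chosen after seeing the data.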
